A study of Mus musculus with 10 samples.

Results

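The genes described here are the 10 regulators of the G1 phase in the deposited table of right atrial RNA-seq, chosen by symbol from its 23337 genes: the D-type cyclins Ccnd1, Ccnd2 and Ccnd3, the E-type cyclins Ccne1 and Ccne2, the Cip/Kip inhibitors Cdkn1a, Cdkn1b and Cdkn1c, and the INK4 inhibitors Cdkn2a and Cdkn2c. The study compared right atria of 4 mice labelled control with right atria of 6 mice labelled Tbx5 mutant, to find which genes change in the adult atrium when the transcription factor TBX5 is removed. The mutant mice carry a Tbx5 gene whose exon 3 can be deleted, and the recombinase for this is made throughout the body from the R26 locus and becomes active with tamoxifen. The mouse strain was mixed, mice received 0.167 mg tamoxifen daily over 3 days, the tissue was taken 1 week later, and the labels give ages of both 6 to 8 and 8 to 10 weeks. The labels give no genotype for the control mice beyond the word control, and the paper names the R26 CreERt2 allele alone for the controls of its left atrial libraries, which were not analysed here.

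In G1, a cell decides between another division and rest. D-type cyclins, made in response to growth signals, activate the kinases CDK4 and CDK6, and E-type cyclins then activate CDK2, so that the RB family of pocket proteins is phosphorylated and E2F factors are released to transcribe the genes of DNA synthesis. INK4 proteins block CDK4 and CDK6, and Cip/Kip proteins bind cyclin and kinase together. Adult heart muscle cells rarely divide, whereas fibroblasts, endothelial cells and leukocytes of the same tissue can re-enter the cycle.

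The 3 D-type cyclins are paralogs, and the values below rest on reads that tell them apart. The first 90 coding bases of each are shown because they open with the same short stretch, the LxCxE motif (leucine, any residue, cysteine, any residue, glutamate) by which D-type cyclins bind pocket proteins, and then diverge. Capitals mark the codons of that motif.
Ccnd1, GRCm38, chr7:144939604-144939693, reverse strand: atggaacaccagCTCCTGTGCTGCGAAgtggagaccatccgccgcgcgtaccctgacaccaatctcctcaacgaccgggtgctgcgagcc
Ccnd2, GRCm38, chr6:127150684-127150773, reverse strand: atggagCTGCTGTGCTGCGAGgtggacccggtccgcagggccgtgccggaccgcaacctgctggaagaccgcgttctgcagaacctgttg
Ccnd3, GRCm38, chr17:47593655-47593744, forward strand: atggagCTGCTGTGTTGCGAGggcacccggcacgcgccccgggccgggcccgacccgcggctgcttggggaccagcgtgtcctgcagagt
Set side by side from the start codon without gaps, Ccnd1 and Ccnd2 differ at 60 of these 90 positions, Ccnd1 and Ccnd3 at 57, and Ccnd2 and Ccnd3 at 51. The motif begins at codon 5 in Ccnd1 but at codon 3 in Ccnd2 and Ccnd3, so the counts with Ccnd1 compare bases out of register. No gaps were allowed, so these counts do not measure how far the paralogs diverge. In the GENCODE M21 annotation no stretch of 50 bases, about the length of a read, was shared between the transcripts of any members. The members do overlap other genes: 27.2% of the 50-base stretches of the Ccnd1 transcript also lie in LTO1 (Oraov1), 21.7% of those of Ccnd3 in Bysl or a pseudogene of Ccnd3, 17.4% of those of Ccne2 in Ints8, and 26.6% of those of Cdkn1c in the antisense gene Gm44732. For Cdkn1a 10.5% also lie in AC167363.2, and for Ccnd2 5.17% in Gm43126. No strand setting of the counting is given in the sources used here, so reads of a gene and of its opposite-strand neighbour cannot be told apart. In these same counts 3 neighbours had enough reads to test, Oraov1, Bysl and Ints8. Their log2 fold changes were 0.03, 0.10 and -0.17 with adjusted p of 0.895, 0.537 and 0.289 (quasi-likelihood test of edgeR, Benjamini-Hochberg adjusted over all tested genes). The part of neighbour reads in the values of the members was not tested.

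Several libraries stand apart or go against their labels. Tbx5 itself was higher, not lower, in the mice labelled Tbx5 mutant (205 ± 17.8 CPM, SD, n = 4, against 394 ± 83.3 CPM, SD, n = 6, edgeR adjusted p = 0.000495), so each direction below is relative to the labels. A count over the whole gene does not show whether exon 3 is present. CPM are counts scaled to a common library size after edgeR's TMM scaling, and the counts of a library summed to 5703775 to 7095141. Reads of the female-specific transcript Xist and the Y-linked gene Ddx3y were exchanged between the 2 control mice labelled male and the 2 labelled female. The ribosomal precursor Rn45s took 38.9% of the counts in mutant M3 and at most 1.49% elsewhere, and 3 adipocyte genes summed to 20.4 CPM in mutant M2 against at most 4.14 CPM elsewhere. Called genes had an adjusted p under 0.05, a change of more than 1.5-fold and a mean normalized control signal above 1. Of all tested genes 8.5% were called higher and 7.16% lower. The 7 genes listed as atrial muscle markers, not all of them restricted to the atrium, were all abundant but moved apart. Myl7 at -2.73, Sln at -0.98 and Nppa at -0.65 on the log2 scale were called lower. Tnnt2 at 1.12 and Actc1 at 0.90 were called higher. Myl4 was at -0.44, under the fold threshold, and Myh6 at 0.10 did not pass. Each mutant mouse was below each control mouse for Myl7, Sln, Nppa and Myl4, and above for Tnnt2 and Actc1. Of all tested genes 11% and 11.7% separated in these directions. The call of Nppa was lost with no filter (edgeR adjusted p = 0.0535). The sum of the 7 was 68200 to 81536 CPM in control and 57562 to 71139 CPM in mutant mice. Of the 4 ventricular muscle markers, Myl3 at 3.92 and Myl2 at 2.10 were called higher, Myh7 at 0.92 did not pass, and Irx4 was not tested, with 0 reads in every control mouse and in 5 mutant mice. Together these 4 summed to 189 to 294 CPM in control and 785 to 1586 CPM in mutant mice.

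Of the 10 members, 9 had enough reads to pass the expression filter and Cdkn2a did not. Ccnd1 and Ccne1 were called higher in the mutant mice, 2 of the 9 tested members, against 8.5% of all 13084 tested genes. Ccne1 reached the level of the expression filter, 1.58 CPM before scaling, in 0 control and 4 mutant mice, so it was tested only because of the group in which it was high. In edgeR, 0 members were called lower, against 7.16% of all tested genes, and the count was also 0 with DESeq2 and limma, while 1 member, Ccnd2, was lower at an unadjusted p under 0.05. In either direction 15.7% of all tested genes were called, so nothing is read from the 2 of 9. Without the threshold on fold change 31.3% of tested genes passed, 16.3% higher and 15% lower, and Ccnd2 joined on the lower side. The median log2 fold change of the 9 members was 0.26, and 0.15 over the 8 that reached the filter level in control mice, beside -0.00 over all tested genes. Because these are whole pieces of tissue, a change in the number of cells of a type and a change in the RNA per cell cannot be told apart.

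**Figure D1:**
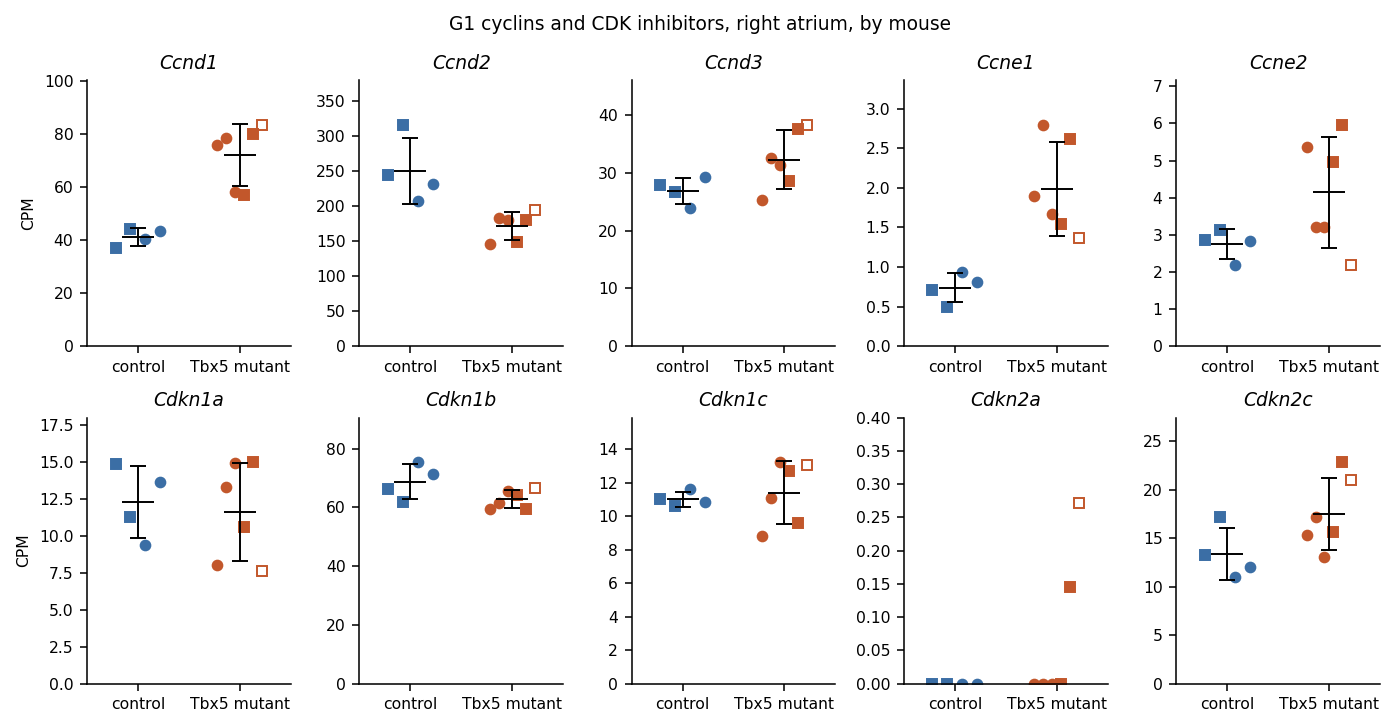
CPM (counts scaled to the library size, vertical axis from 0) of each member in each right atrium, control in blue and Tbx5 mutant in orange, squares for mice labelled male, circles for mice labelled female and the open square for mutant M3. Black bars give the mean and SD (not drawn for Cdkn2a, whose 2 points above 0 are single reads), and the groups are apart for Ccnd1, Ccnd2 and Ccne1.

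Ccnd1, the D-type cyclin most directly induced by growth factors, lies on chromosome 7 from 144929931 to 144939925 on the reverse strand. It stood at 36.9, 44.2, 40.3 and 43.4 CPM in controls M1, M2, F1 and F2, and at 57.1 to 83.6 CPM with a median of 77.1 in the 6 mutant mice. Each mutant mouse was above each control mouse, which held for 11.7% of all tested genes (exact permutation test, two-sided, p = 0.00952, and no lower p is possible with the 210 splits of 4 mice against 6). The fitted rise was 0.81 on the log2 scale, or 1.75-fold (standard error 0.12, edgeR adjusted p = 0.000317). Mutant M3 had the highest value, and without it the rise was 0.76 with an edgeR adjusted p of 0.000782, while without mutant M2 it was 0.78. Among the mice labelled male the log2 fold change was 0.86 and among those labelled female 0.76, both called, but with the sex reads of the control mice exchanged, neither of these fits holds sex constant.

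Ccnd2, the D-type cyclin with the most reads in the atrium, lies on chromosome 6 from 127125162 to 127152193 on the reverse strand. It stood at 245, 317, 208 and 232 CPM in controls M1, M2, F1 and F2, and at 147 to 194 CPM with a median of 180.3 in the mutant mice. Its direction was opposite to that of Ccnd1: each mutant mouse was below each control mouse, which held for 11% of all tested genes (exact permutation test, two-sided, p = 0.00952). The fitted log2 fold change was -0.54, or 1.45-fold lower (standard error 0.12, edgeR adjusted p = 0.00472), just under the fold threshold, so Ccnd2 was not called. Without mutant M3 it was -0.58 and without mutant M2 -0.55. Control F1 had the lowest and control M2 the highest control value. Without control F1 the log2 fold change was -0.62 and Ccnd2 was called lower, and without control M2 it was -0.40 with an edgeR adjusted p of 0.0212. Among the mice labelled female it was -0.37 with an edgeR adjusted p of 0.0672, and among those labelled male -0.69 with an adjusted p of 0.0393. Ccnd2 has a long transcript of 6330 bases, and over 11868 tested genes log2 fold change ran with transcript length at a Spearman correlation of -0.314. With each library's trend on length removed, its log2 fold change was -0.37 (edgeR adjusted p = 0.0474).

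Ccnd3, the D-type cyclin on chromosome 17 from 47505051 to 47599691, forward strand, is often the one present in resting and differentiated tissue. It stood at 27.9, 26.6, 24.0 and 29.2 CPM in controls M1, M2, F1 and F2, and at 25.4 to 38.4 CPM with a median of 32.0 in the mutant mice, so the groups overlapped. Its log2 fold change was 0.26 (standard error 0.12, edgeR adjusted p = 0.121) and did not pass, although with mutant F1, the lowest mutant mouse, left out the edgeR adjusted p was 0.0448 at a fold still under 1.5. Of the 9 tested members 3 had groups that did not overlap in CPM, Ccnd1, Ccnd2 and Ccne1, against 22.7% of all tested genes in either direction.

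Compared per kilobase of the longest coding transcript, the makeup of the D-type cyclin RNA differed between the groups. Ccnd1 made up 15.9% to 19.6% of the D-type total in control mice and 26.4% to 36.5% in mutant mice. Ccnd2 made up 59.0% to 67.2% in control mice and 41.8% to 48.3% in mutant mice. Ccnd3 made up 16.9% to 22.3% in control and 21.7% to 26.3% in mutant mice, with overlap. The total itself was 63.3 ± 8.14 CPM per kilobase (SD, n = 4) in control and 61.8 ± 7.43 (SD, n = 6) in mutant mice, a difference smaller than the SD of either group.

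The ratio of 2 members within a library does not depend on how libraries are scaled, so 7 ratios were tested over mice. The log2 ratio of Ccnd2 to Ccnd1 counts was 2.36 to 2.84 in control and 0.95 to 1.63 in mutant mice, a difference of -1.32, or 2.50-fold lower (exact permutation test, two-sided, p = 0.00952, 0.0222 after Benjamini-Hochberg adjustment over the 7 ratios). Each mutant mouse was above the controls for Ccnd1 and below them for Ccnd2, so this ratio had to separate and its p adds no further support. The share of other gene pairs whose ratios separate was not computed. The log2 ratio of Ccnd3 to Ccnd1 was lower by 0.54 on average, at -0.61 ± 0.16 (SD, n = 4) in control and -1.15 ± 0.24 (SD, n = 6) in mutant mice. That of Ccnd3 to Ccnd2 was higher by 0.78, at -3.20 ± 0.25 (SD, n = 4) and -2.41 ± 0.11 (SD, n = 6), and both had the same exact permutation p of 0.00952. For each of these 3 ratios the 6 mutant mice lay beyond the 4 control mice, so the counts of the 3 D-type cyclins did not change by the same factor. The ratios, and the shares per kilobase, were not recomputed with the trend on transcript length removed. In the fit with that trend removed, the log2 fold changes of Ccnd1, Ccnd2 and Ccnd3 were 0.82, -0.37 and 0.28.

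**Figure D2:**
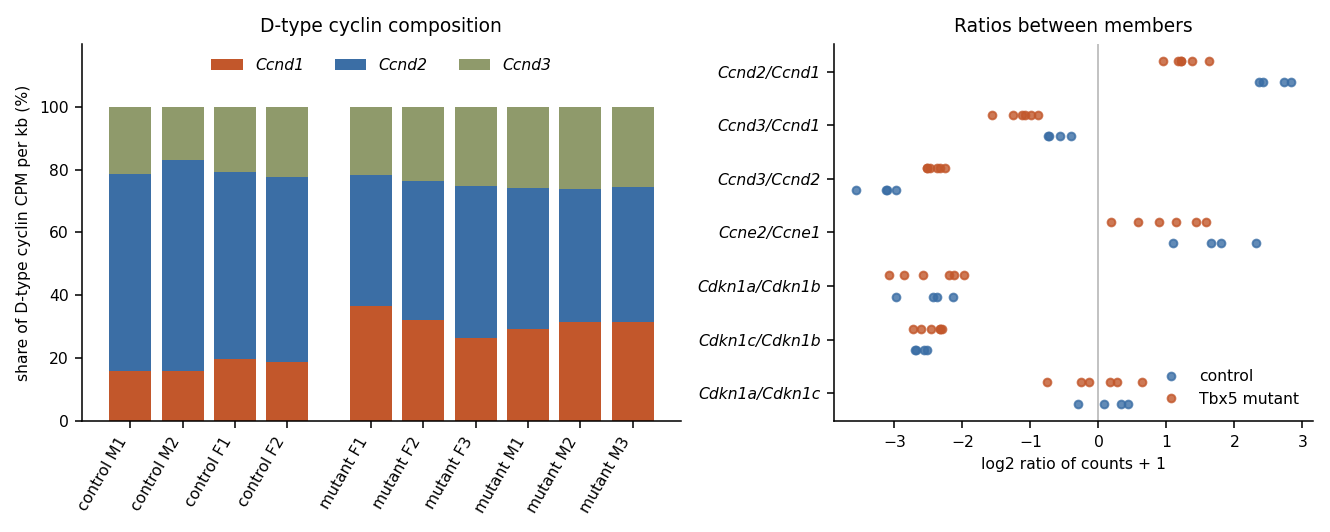
Left, the share in % of each D-type cyclin in the summed D-type CPM per kilobase of transcript, 1 bar per mouse. Right, the log2 ratio of counts + 1 between members, 1 point per mouse, control in blue and Tbx5 mutant in orange: the groups are apart for the 3 ratios among D-type cyclins, with Ccnd2/Ccnd1 at 2.36 to 2.84 in control and 0.95 to 1.63 in mutant mice, and overlap for the other 4.

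Both E-type cyclins were scarce. Ccne1, on chromosome 7 from 38097984 to 38107534 on the reverse strand, is the cyclin that with CDK2 carries cells into S phase. It had 5, 3, 6 and 6 reads in controls M1, M2, F1 and F2 and 5 to 21 reads in the mutant mice, which is 0.71, 0.50, 0.94 and 0.81 CPM against 1.36 to 2.80 CPM with a median of 1.78. Scaled to the library each mutant mouse was above each control mouse, which held for 11.7% of all tested genes (exact permutation test, two-sided, p = 0.00952). Ccne1 passed the filter only through the mutant mice, so its separation among tested genes is partly set by the filter. The exact p is therefore no separate support. The fitted rise was 1.42 on the log2 scale, or 2.68-fold (standard error 0.32, edgeR adjusted p = 0.00471), the one with the widest standard error. Fitted with no filter, in which all genes with a read were tested, it was at 1.42 with an edgeR adjusted p of 0.00727. Without mutant M3 it was 1.49, without mutant M2 1.34, and with a prior count of 5 it was 0.88. With so few reads, whether Ccne1 was tested depended on which mice were kept. Without mutant F2 or without mutant F3, and among the mice labelled male, Ccne1 fell under the expression filter and was not tested. Among the mice labelled female the log2 fold change was 1.28 with an edgeR adjusted p of 0.0691.

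Ccne2, its paralog on chromosome 4 from 11191351 to 11204779, stood at 2.86, 3.14, 2.19 and 2.84 CPM in controls M1, M2, F1 and F2, and at 2.18 to 5.97 CPM with a median of 4.09 in the mutant mice. Of the mutant mice 5 were above each control mouse and mutant M3, with 8 reads, was below them all. The log2 fold change was 0.61 (standard error 0.27, edgeR adjusted p = 0.102) and did not pass, but without mutant M3 it was 0.71 with an adjusted p of 0.0494 and Ccne2 was called higher. The log2 ratio of Ccne2 to Ccne1 was 1.72 ± 0.50 (SD, n = 4) in control and 0.97 ± 0.53 (SD, n = 6) in mutant mice, and its difference did not pass (exact permutation test, two-sided, p = 0.0571, adjusted p = 0.1 over the 7 ratios).

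The 3 Cip/Kip inhibitors did not pass the test. Cdkn1a, the inhibitor that p53 induces after DNA damage, on chromosome 17 from 29090976 to 29100727, stood at 14.9, 11.3, 9.41 and 13.7 CPM in controls M1, M2, F1 and F2, and at 7.62 to 15.0 CPM with a median of 12.0 in the mutant mice. Its log2 fold change was -0.07 with an interval of 2 standard errors from -0.47 to 0.34 (edgeR adjusted p = 0.828), and its sign changed when control M1, mutant F1 or mutant M3 was left out, to 0.048, 0.025 and 0.012. The mutant mice of this gene were spread widely, from mutant M3 and mutant F1 below all controls to mutant M2 and mutant F3 above them.

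Cdkn1b, an inhibitor of CDK2 kept high in resting cells, on chromosome 6 from 134920401 to 134925513, was the Cip/Kip gene with the most RNA. It stood at 66.2, 61.7, 75.4 and 71.3 CPM in controls M1, M2, F1 and F2, and at 59.3 to 66.7 CPM with a median of 62.9 in the mutant mice, with 3 mutant mice below every control. The log2 fold change was -0.13 with an interval of 2 standard errors from -0.29 to 0.03 (edgeR adjusted p = 0.241). Cdkn1c, an imprinted inhibitor active in development, on chromosome 7 from 143458339 to 143461050, stood at 11.00, 10.6, 11.6 and 10.8 CPM in controls M1, M2, F1 and F2, and at 8.83 to 13.2 CPM with a median of 11.9 in the mutant mice. Its log2 fold change was 0.05 with an interval of 2 standard errors from -0.23 to 0.32 (edgeR adjusted p = 0.827). The 3 ratios among Cip/Kip genes had adjusted exact permutation p of 0.187 to 0.952 over the 7 ratios, with the groups overlapping in each.

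Of the INK4 inhibitors, Cdkn2c, which blocks CDK4 and CDK6, on chromosome 4 from 109660876 to 109667189, stood at 13.3, 17.2, 10.97 and 12.0 CPM in controls M1, M2, F1 and F2, and at 13.1 to 22.9 CPM with a median of 16.4 in the mutant mice. The groups overlapped, with controls M2 and M1 above mutant F3, the lowest mutant mouse. The log2 fold change was 0.38 (standard error 0.17, edgeR adjusted p = 0.105), and without control M2 it was 0.53 with an adjusted p of 0.0458. Cdkn2a, on chromosome 4 from 89274471 to 89294653, encodes both an INK4 protein and, in another reading frame, a protein that stabilises p53, and the table gives 1 count for both. It had 0 reads among the 26210976 counts of the control mice, which allows up to 0.114 CPM over the group by 3 counts, and 1 read each in mutant M2 and mutant M3, so no difference was detectable at this depth.

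**Figure D3:**
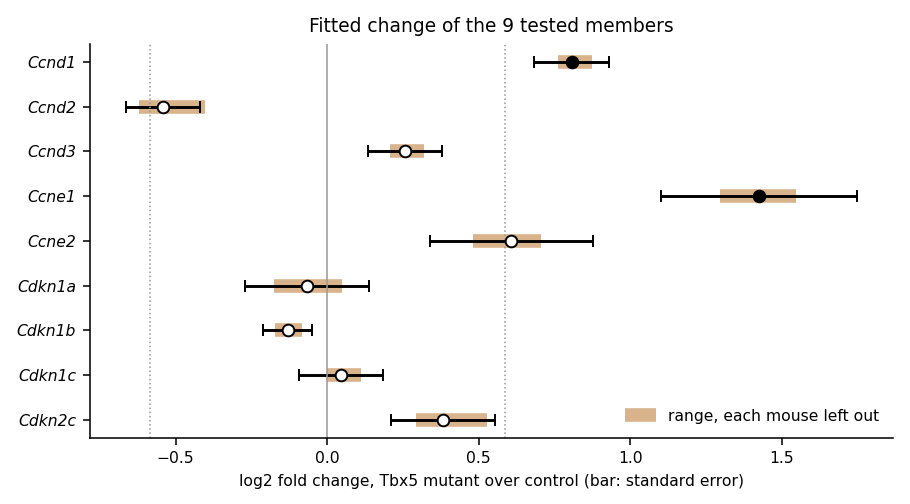
Fitted log2 fold change (horizontal axis, mutant over control) of the 9 tested members with its standard error, filled where called, over a tan band that spans the fits with each mouse left out in turn. Dotted lines mark a fold of 1.5, which Ccnd1 at 0.81 and Ccne1 at 1.42 exceed and Ccnd2 at -0.54 does not reach, and the band of Ccne1 covers the 8 fits in which it was tested.

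In order of level per kilobase, Ccnd2 led in both groups, at 39.6 ± 7.41 CPM per kilobase (SD, n = 4) in control and 27.2 ± 3.11 (SD, n = 6) in mutant mice. Behind it in control mice came Cdkn1b at 15.1, Ccnd3 at 12.7 and Ccnd1 at 11.01 CPM per kilobase, each pair of neighbours with overlapping ranges but in that order in all 4 mice. In mutant mice the order of means behind Ccnd2 was Ccnd1 at 19.3, Ccnd3 at 15.3 and Cdkn1b at 13.8 CPM per kilobase. Ccnd1 was above Ccnd3 in all 6 mice and Ccnd3 above Cdkn1b in 4 of 6, with overlapping ranges in both pairs. Cdkn1a, Cdkn1c and Cdkn2c followed at 5.41 to 5.91 CPM per kilobase in control and 5.57 to 7.08 in mutant mice, with overlapping ranges. Ccne2, Ccne1 and Cdkn2a came last in both groups.

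The genes around the members in the same pathway were taken from lists chosen with earlier results of these data known. Their counts and medians are therefore descriptions only. Among the 7 G1 kinases and their activators, Cdk2 and Cdk4, the kinases of the E-type and D-type cyclins, passed the adjusted p with log2 fold changes of 0.56 and 0.44 but stayed under the fold threshold, and the other 5 did not pass. The INK4 inhibitor Cdkn2d was called higher, at 9.55 CPM in control and 15.7 CPM in mutant mice (log2 fold change 0.71, edgeR adjusted p = 0.00462), whereas Cdkn2b was not tested. Of 13 pocket proteins and E2F factors, 4 were called higher, E2f1, E2f2, E2f7 and E2f8, by 1.19 to 2.00 on the log2 scale (8.5% of all tested genes were called higher). E2f1, E2f2 and E2f7 reached the filter level in mutant mice only and E2f8 in 1 control mouse. The filter needs that level in 4 libraries, so E2f8 too was tested only because of the mutant mice. Of the 10 genes that reached the level in a control mouse 1 was called higher, E2f8. In the same list Rb1, the founding pocket protein, was lower at a log2 fold change of -0.53 (edgeR adjusted p = 0.000541) and Rbl2 at -0.35, both under the fold threshold, and Rbl1 was higher at 0.55, also under it.

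E2F factors drive the genes of DNA synthesis at the G1/S border. Of 14 such genes tested, 9 were called higher, against 8.5% of all tested genes. They were the replication clamp Pcna, the helicase subunits Mcm2, Mcm3, Mcm5 and Mcm6, the licensing factors Cdc6 and Cdt1, and the nucleotide synthesis genes Rrm2 and Tk1. Their log2 fold changes ran from 0.69 to 1.97, and the median of the list was 0.80 beside -0.00 over all tested genes, and also 0.80 without Cdc6, which reached the filter level in mutant mice only. Cdt1 reached that level in 2 control mice, fewer than the 4 libraries that the filter needs. Of 9 listed cyclins and markers of later phases, 4 reached the filter level in at least 1 control mouse, Ccna2, Cdk1, Mki67 and Top2a. These 4 were called higher, against 8.5% of all tested genes, with a median log2 fold change of 3.03. Cdk1 reached the level in 1 control mouse only, so it too was tested because of the mutant mice. Ccna2, Mki67 and Top2a reached it in all 4 control mice and had log2 fold changes of 2.71, 2.77 and 3.29. Ccnb1, Ccnb2, Ccnf and Foxm1 were also called higher but had at most 9 reads in a control mouse and reached that level in mutant mice only. With no filter, when Mybl2 was fitted too, 8 of the 9 were called higher, against 6.08% of all genes fitted. Mki67, a marker of dividing cells, stood at 5.68 to 12.6 CPM in control and 29.4 to 118 CPM in mutant mice, and Ccna2, the S phase cyclin, at 2.03 to 4.14 against 10.3 to 33.2 CPM, with no overlap in either.

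**Figure D4:**
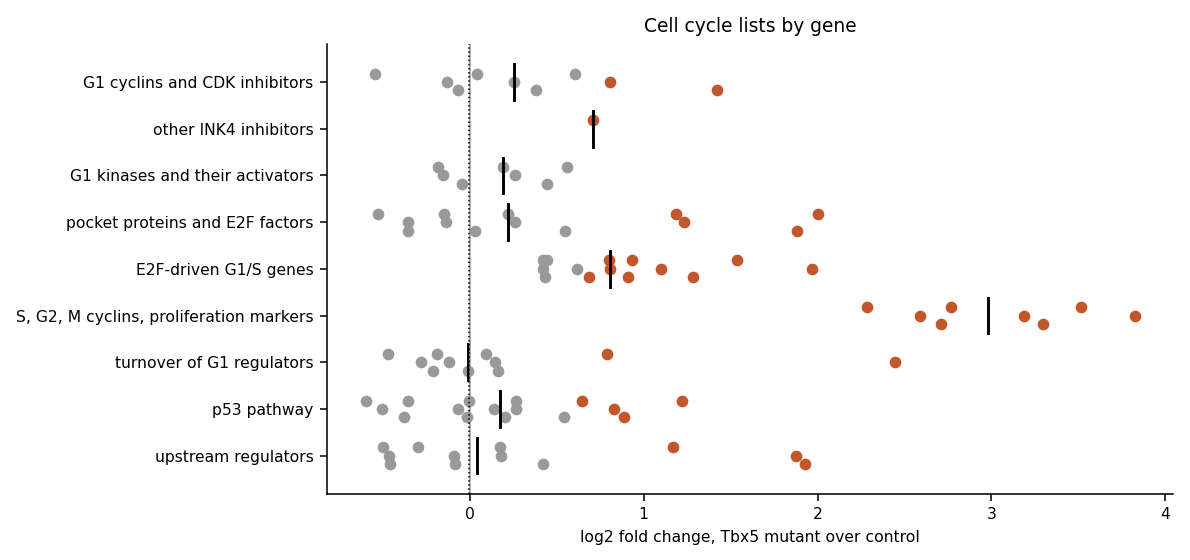
Log2 fold change (horizontal axis, mutant over control) of each tested gene in the cell cycle lists, orange where called higher and grey where not called, with a black bar at the list median and a dotted line at the median of all tested genes. The medians run from -0.01 for the turnover genes to 2.98 for the 8 tested S, G2 and M phase genes, with the G1 cyclins and CDK inhibitors at 0.26. Of the 8, 4 reached the filter level in mutant mice alone and Cdk1 in 1 control mouse.

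Other listed genes act on the members, by degrading their proteins or by inducing their RNA. Of 11 tested turnover genes, Cks1b, a cofactor in the destruction of Cdkn1b protein, and Dtl, which targets Cdkn1a protein in S phase, were called higher at log2 fold changes of 0.79 and 2.45, Dtl having reached the filter level in mutant mice only. All 3 counts in this paragraph stand beside the 8.5% of tested genes called higher. Fbxo31 and Ambra1, which direct the destruction of D-type cyclin proteins, were lower at -0.47 and -0.28, under the fold threshold. Of 16 tested genes of the p53 pathway 4 were called higher, Phlda3, Aen, Btg2 and Plk2, at 0.65 to 1.22, while Mdm2 and Ccng1, also p53 targets, had log2 fold changes of -0.07 and -0.00 and did not pass, and Trp53inp1 was lower at -0.38 (edgeR adjusted p = 0.0178), under the fold threshold. Of 12 upstream regulators Myc, Mycn and Fos, growth-induced transcription factors, were called higher at 1.93, 1.88 and 1.17. Mycn reached the filter level in mutant mice only and Myc in 2 control mice. Foxo4, Smad3 and Foxo1, factors that can induce Cip/Kip inhibitors, were lower at -0.46, -0.46 and -0.50, each with an edgeR adjusted p under the threshold and a fold under 1.5.

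Summed markers of some other cell types were apart between the groups, and those of others overlapped. The calls of markers stand beside the 8.5% of all tested genes called higher. The summed level of 7 fibroblast markers was 3783 to 5009 CPM in control and 6203 to 9429 CPM in mutant mice, with Col1a1, Col1a2 and Col3a1 called higher. Of the other 4 fibroblast markers Pdgfra was lower at a log2 fold change of -0.40 (edgeR adjusted p = 0.0152), under the fold threshold. Dcn at -0.01, Lum at 0.45 and Tcf21 at 0.57 did not pass. The 6 leukocyte markers summed to 164 to 235 CPM in control and 276 to 375 CPM in mutant mice, 4 of the 4 tested being called higher, and the 4 smooth muscle markers to 98.9 to 150.2 and 159 to 583 CPM. Of the smooth muscle markers, Acta2 at 1.98 and Tagln at 2.01 were called higher. Myh11 at 0.23 (edgeR adjusted p = 0.552) and Cnn1 at 0.87 (edgeR adjusted p = 0.0572, 0.0429 with no filter) did not pass. The 5 endothelial markers overlapped, at 895 to 1195 and 1030 to 1256 CPM, and so did the 3 epicardial markers, at 259 to 273 and 152 to 305 CPM. The 3 erythrocyte markers summed to 84.6 to 191.5 and 111.5 to 590.8 CPM, Hbb-bs at 1.39 and Alas2 at 1.05 being called higher and Hba-a1 listed at 0 throughout. The part of these cell types in the values of Ccnd1, Ccnd2 and Ccne1 was not tested.

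RefSeq promoters of GRCm38.p6, 250 bases before to 50 after each start, were at hand for 6 of the 10 members and not for Ccnd1, Ccnd2, Ccne2 or Cdkn1c. The E2F letters TTTCCCGC, TTTCGCGC, TTTGCCGC and TTTGGCGC, searched on both strands, were found in 2.26% of all 32851 promoters and in 1 member, Cdkn2a, at 99 bases before a start. The T-box half-site GGTGTGA was found in 3.98% of all promoters and in 1 member, Cdkn1a, 14 bases after a start. These matches describe letters in the windows and no binding.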

How the data were processed

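The members and gene lists were chosen with earlier results of these data known. Right atrial RNA was sequenced in 10 libraries, each counted here as 1 mouse. The submitters' processing notes name FastQC, TopHat2 2.0.11, featureCounts, DESeq2 and the build mm10. The authors deposited whole-number counts of reads per gene, and a normalized signal, each count divided by 1 DESeq2 size factor per library, with its mean. The other deposited columns, the authors' own comparison (a log2 fold change and its error, a Wald score, p-values and a fold change as a ratio), were not used. The labels describe both an mRNA kit and ribosome-depleted total RNA.

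The counts were analysed in R 4.3.3 with edgeR 4.0.16: filterByExpr, TMM scaling, its quasi-likelihood test on all 10 libraries with no covariate, a prior count of 0.125 and Benjamini-Hochberg adjustment over the 13084 tested genes. Calls used the thresholds that the paper gives for its left atrial RNA-seq (adjusted p 0.05, fold 1.5, mean control signal 1), since none are given for these libraries. Each standard error is the fitted log2 change divided by the root of its F statistic. CPM use TMM library sizes. Gene coordinates are those of the whole gene in GENCODE M21, and levels per kilobase use its longest coding transcript. The correlation and the trend on transcript length use the longest transcript of any type. Single values were compared by exact permutation of mice, without adjustment over the 10 members, and ratios used counts plus 1. The labels do not say whether tissue was pooled, so p-values measure the spread between these samples. On counts simulated with changes of equal size and no length trend, edgeR recovered 159 of 200 changed genes and made 7 other calls among 12960 genes. These were scored by an adjusted p under 0.05 alone. They do not measure the performance of the calls used here, which add fold and control thresholds. Library totals of 5703775 to 7095141 counts put 3 counts, the smallest taken as detectable, at 4.23e-05% to 5.26e-05% of a library, and such floors cover counting error only. No pair of libraries of a group agreed within sampling noise (chi-square per degree of freedom at least 3.60 in 21 pairs).

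Named genes were the members, Tbx5, Xist and Ddx3y, the called genes of the lists, and uncalled ones needed to state a count. Alternatives were other scalings, filters, prior counts, DESeq2 1.42.0, limma 3.58.1, sex as a covariate, a replicate block, each mouse left out, each labelled sex alone, counts without Rn45s, removal of the trend on transcript length (a lowess curve with a span of 0.4 per library), other thresholds, and a pseudocount of 0.5 in the ratios. Counts of the lists with no filter, and without genes that reached the filter level in no control library, were added after seeing the data.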

Additional observations from a re-analysis of the deposited data

How the results depend on the processing

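The number of members called lower was 0 and became 1, Ccnd2, among the mice labelled male and with no threshold on fold change (among the mice labelled female Ccnd2 was at -0.37 with an edgeR adjusted p of 0.0672), and it ran from 0 to 1 with each mouse left out, reaching 1 without control F1. The number called higher was 2 and became 1 with a mean count of at least 50, among the mice labelled male, among the mice labelled female and at a fold over 2, and it ran from 1 to 3 with each mouse left out: Ccne1 was lost to the filter without mutant F2 or mutant F3, and Ccne2 was gained without mutant M3. Over all tested genes the counts called lower and higher, 937 and 1112, became 1967 and 2129 with no threshold on fold change and 367 and 539 at a fold over 2, and the count called higher was 653 with a mean count of at least 50. Replicate names did not pair the samples (mean correlation of deviations -0.0071 over 4 same-named pairs), and with the replicate name as a block 1 member, Ccnd2, was called lower at a log2 fold change of -0.59 and 3 were called higher, Ccne2 being added, while Cdkn1c was at -0.067. Cdkn1c also turned negative among the mice labelled female (-0.014) and with the length trend removed (-0.094). Cdkn1a was at 0.071 among the mice labelled female and ran from -0.17 to 0.048 with each mouse left out, positive without control M1 (0.048), mutant F1 (0.025) or mutant M3 (0.012). With each mouse left out, the differences in log2 ratio ran from -1.40 to -1.24 for Ccnd2/Ccnd1, -0.59 to -0.46 for Ccnd3/Ccnd1, 0.66 to 0.85 for Ccnd3/Ccnd2, -0.96 to -0.55 for Ccne2/Ccne1 (adjusted exact permutation p = 0.0417 without control F1) and -0.15 to 0.14 for Cdkn1a/Cdkn1b, negative without control F1 (-0.15), mutant F2 (-0.04), mutant F3 (-0.05) or mutant M2 (-0.08). With 3 control mice left, the 3 D-type ratios had an adjusted exact permutation p of at most 0.0556, which is the smallest that so few splits allow where no other ratio reaches it. The cause of these changes was not tested. Depth limits Ccne1, Ccne2 and Cdkn2a most.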
